A study of Mus musculus with 3 samples.

Results

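The genes described here are 35 imprinted genes of the mouse, taken by name from a list of genes known to be expressed mainly or only from the copy inherited from 1 parent, out of 35562 genes listed in each RNA-seq library. They fall into 14 imprinted loci. Of the 35, 21 are known as paternally expressed and 14 as maternally expressed, and 6 of them (Copg2, Ddc, Blcap, Ube3a, Gnas and Commd1) are known to be imprinted in a few tissues or for a few transcripts only. The rule used names, but the list was drawn up with earlier results of these data known. In these cells 28 of the 35 genes reached a mean of 1 TPM, as did 12528 of all 35562 listed genes. TPM is a level divided by transcript length and scaled to a fixed total per library.

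The libraries were made from 3 myoblast lines, 66, 67 and 72, each a culture of muscle precursors. All 3 carried the genotype Dmdmdx; Pax7-nGFP, in which mdx is a premature stop codon in the dystrophin gene and Pax7-nGFP a nuclear green fluorescent reporter of satellite cells, which are the resident stem cells of muscle. The mdx mutation had been corrected with CRISPR/Cas9 in induced pluripotent stem cells (iPSCs), which were injected into mouse blastocysts whose own satellite cells could be ablated, and reporter-positive cells were sorted from the muscle of the resulting chimeras. The lines thus form 1 condition with n = 3, no control group is compared here, and a difference between lines rests on 1 library a line. The labels do not say whether the lines came from separate animals, whether a chimera received tamoxifen, or whether all lines trace to 1 edited clone, so the spread between lines may be in part technical.

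Genomic imprinting marks a gene in the germ line, by DNA methylation at control regions, so that afterwards the copy from 1 parent is expressed and the other is silent. Imprinted genes lie in clusters that share a control region, often with a long noncoding RNA made from 1 parental copy and protein-coding genes from the other. Many act on fetal growth, on the exit of cells from the cycle and on stem cell quiescence, and several are abundant in developing or regenerating muscle. The tables sum the reads of both parental copies, so the copy named for each gene is textbook knowledge and was not measured.

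Library totals lay between 66972426 and 73274315 estimated counts, and a gene with no count may still have had up to 3, or between 0.0409 and 0.0448 CPM (counts scaled to the library total). All 12 markers of myoblasts, Pax7, Myf5 and Myod1 among them, had a mean of at least 10 TPM, with summed levels of 3013, 2944 and 2892 TPM in lines 66, 67 and 72. Of 12 fibroblast markers 3 reached 10 TPM (Col1a2, Col3a1 and Prrx1) while Lum and Dpt had 0 counts, of 10 endothelial and immune markers none did, and 7 of 10 pluripotency markers were at or under 3 counts in every line. The pluripotency markers Pou5f1, Esrrb and Nanog were above that, with means of 10.3, 1.45 and 0.293 TPM. Of 14 markers of differentiated muscle 13 had a mean of at least 10 TPM, Myog, Acta1 and Mylpf among them. All 14 were lowest in line 66, and 12 were also highest in line 72, with sums of 1955, 2788 and 3299 TPM. The sum of the fibroblast markers was 247, 320 and 448 TPM, carried by Col3a1, Prrx1 and Col1a2, but only 3 of the 12 markers were lowest in line 66 and highest in line 72, and others such as Pdgfra and Col1a1 were highest in line 66. The differentiated muscle markers move in the same order of lines as several of the imprinted genes below, and their part in those results was not tested. In bulk RNA, fewer expressing cells and less RNA per cell cannot be told apart.

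The median level of the 35 imprinted genes was 3.95 on the log2(TPM + 1) scale, against 0.13 for all listed genes and 0.88 for the 25510 genes above 0 in a line. Of the 35, 21 had a mean of at least 10 TPM and 7 lay between 1 and 10 TPM. Another 5 lay under 1 TPM, and Dio3 and Phlda2 were at or under 3 counts in every line. Among all 35562 listed genes, 12528 reached a mean of 1 TPM and 8428 a mean of 10 TPM. Both parental classes were spread over this scale: 11 of 21 paternally expressed and 10 of 14 maternally expressed genes reached 10 TPM. The most abundant in TPM were Gnas at 1698 ± 30.9 TPM (mean ± SD, n = 3, as for all such values) and Mest at 720 ± 439 TPM. Next came Peg3 at 443 ± 74.5 TPM, Plagl1 at 296 ± 88.6 TPM and Peg10 at 169 ± 7.73 TPM. This order depends on the unit. Peg3 was at 2531, 1796 and 2119 CPM in lines 66, 67 and 72, against 874, 885 and 840 CPM for Gnas.

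**Figure D1:**
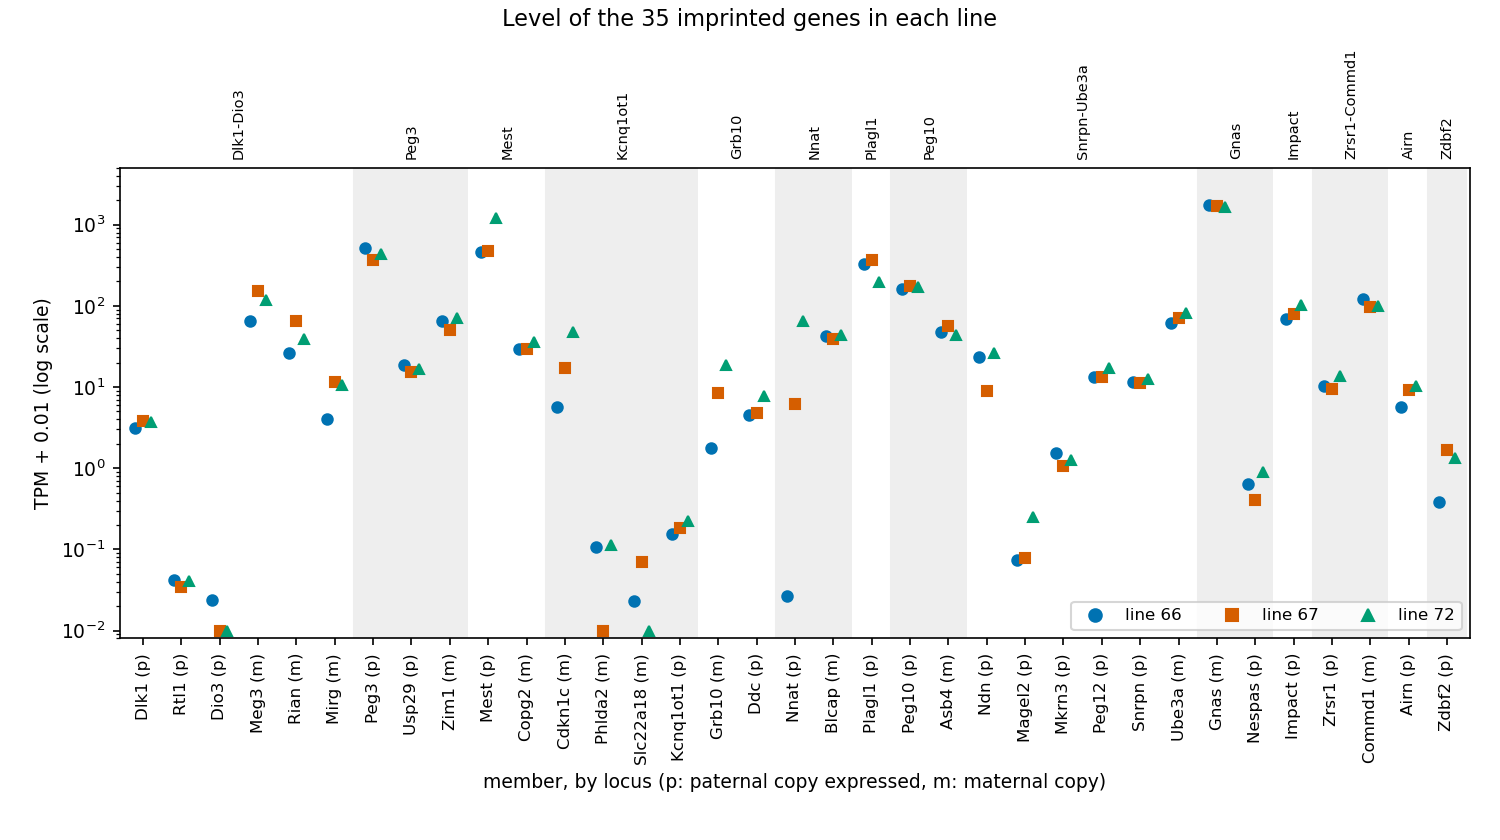
Level of each of the 35 imprinted genes in lines 66, 67 and 72, in TPM with 0.01 added so that values of 0 can be drawn (log axis), grouped by locus along the x axis with p for paternal and m for maternal expression. The 3 points of most genes lie close together, from under 0.1 TPM for Dio3 to 1698 TPM for Gnas, while those of Nnat, Grb10 and Cdkn1c are far apart and rise from line 66 to line 67 to line 72.

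Several imprinted genes lay far apart between the lines. The range of a gene was taken as its largest minus its smallest log2(TPM + 1) over the 3 lines, and a range above 1 was called over 2-fold. Of the 28 imprinted genes whose mean reached 1 TPM, 8 (28.6%) were over 2-fold apart, against 508 of all 12528 genes at that level (4.05%). These were Nnat, Cdkn1c, Grb10, Ndn, Mest, Mirg, Rian and Meg3, from 6 loci and both parental classes. The nearest genes under the threshold were Zdbf2 with a range of 0.96 and Plagl1 with 0.90, and the nearest above it was Meg3 with 1.23. The median range was 0.49 for the imprinted genes and 0.26 for all genes, and the median biological coefficient of variation between lines, as edgeR estimates it, was 0.218 against 0.150. As the list was drawn up with results of these data known, the shares are a description. No p-value is given, because the members share loci and the 3 lines form a single group.

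Over 2-fold apart with line 66 lowest were 7 of the 28 imprinted genes (25%) and 168 of the 12528 genes (1.34%), that is 7 of 8 against 168 of 508 among the genes over 2-fold apart. Ndn was lowest in line 67, as were 1.59% of all 12528 genes, which is the base of the shares that follow. Line 72 was the highest in Nnat, Cdkn1c, Grb10, Mest and Ndn (1.44% of all genes), and line 67 in Meg3, Rian and, in TPM only, Mirg (0.894%). None was lowest in line 72 or highest in line 66, against 1.13% and 1.72% of all genes. By pairs, 7 of the 28 genes were over 2-fold apart between lines 66 and 67 (2.11% of all genes), 6 of them higher in line 67 (0.718%) and 1 lower (1.39%). Between lines 66 and 72 there were 5 (2.18%), all higher in line 72 (1.09%) and none lower (1.09%). Between lines 67 and 72 there were also 5 (1.73%), all higher in line 72 (1.08%) and none lower (0.655%). Among the 21 imprinted genes whose mean reached 10 TPM, 6 were over 2-fold apart, against 2.17% of all 8428 genes at that level. At a mean of 1 TPM, the count over 2-fold apart was 5 of 28 without line 66 (1.76% of all genes), 5 of 27 without line 67 (2.23%) and 7 of 28 without line 72 (2.15%).

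**Figure D2:**
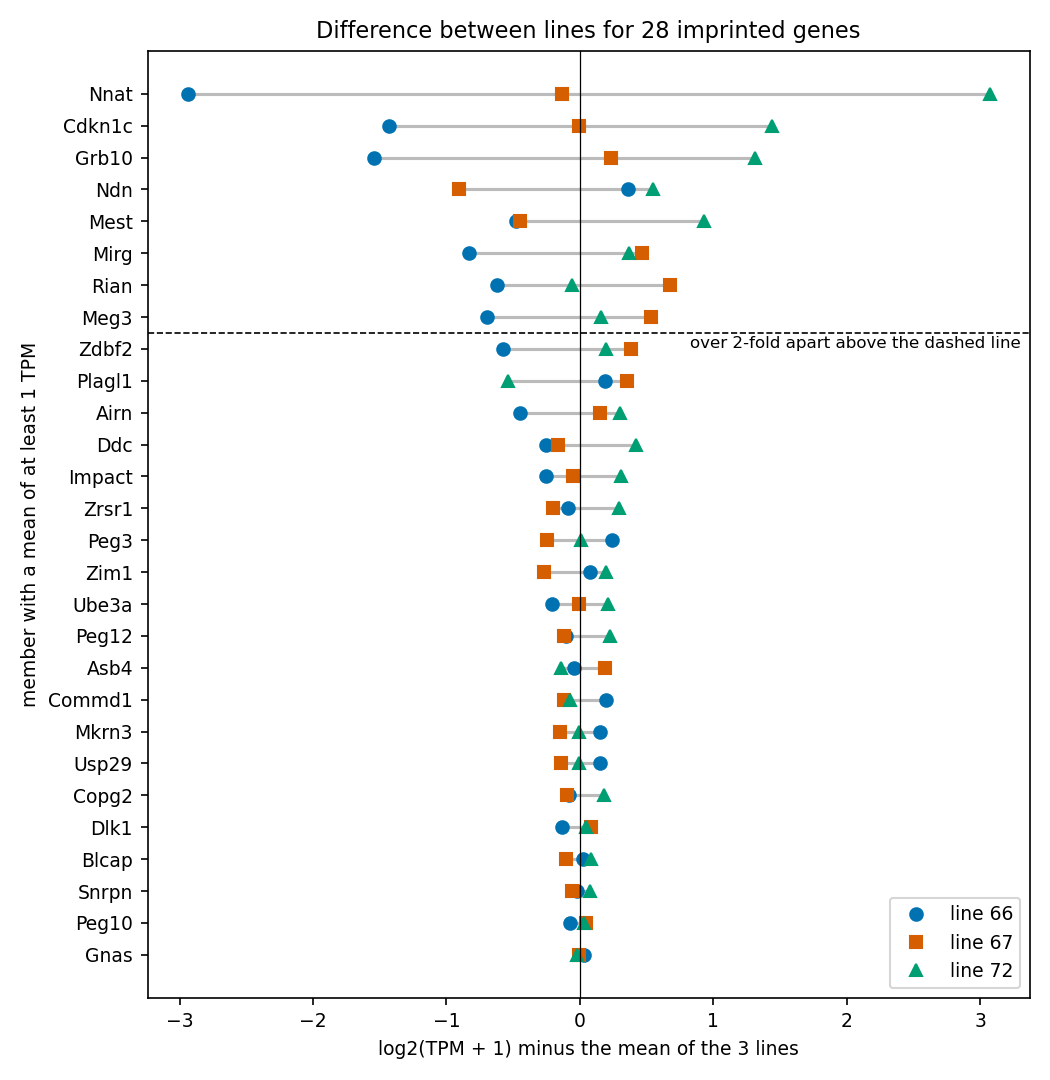
Difference of each line from the mean of the 3 lines, in log2(TPM + 1), for the 28 imprinted genes whose mean reached 1 TPM, sorted by range. The 8 genes above the dashed line have a range over 1, from 1.23 for Meg3 to 6.01 for Nnat, and line 66 is the lowest point in 7 of them.

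**Figure D3:**
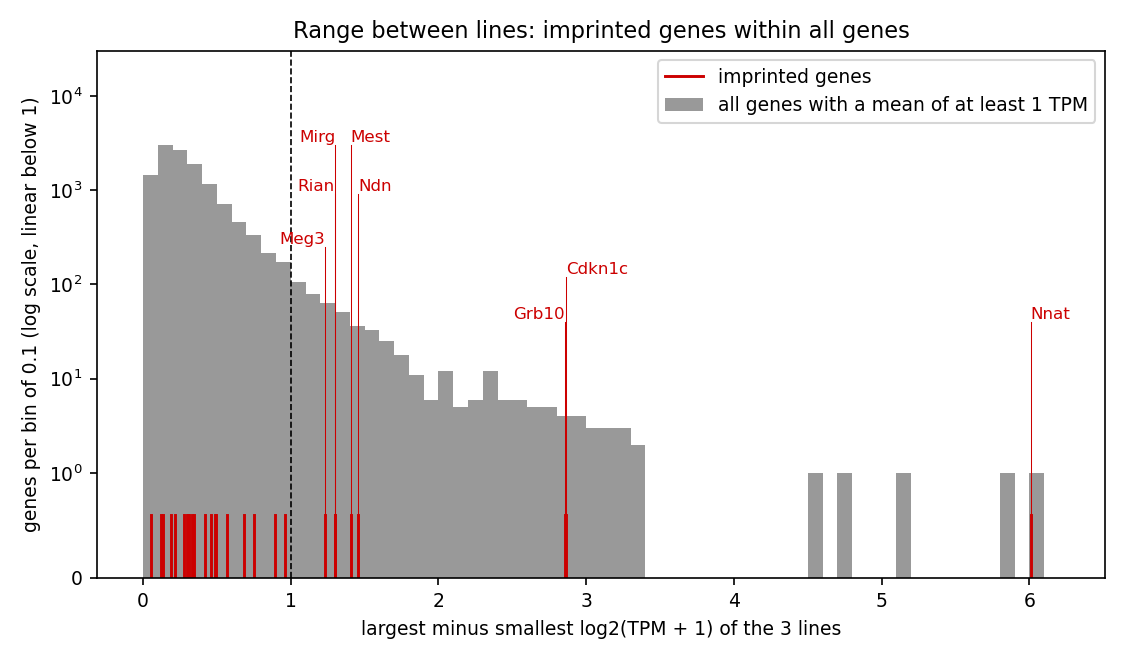
Number of genes by range between lines (largest minus smallest log2(TPM + 1), bins of 0.1) for all 12528 genes whose mean reached 1 TPM in grey, with the 28 imprinted genes as red ticks and those over 2-fold apart named. The grey bars fall steeply from a median of 0.26, whereas 8 red ticks lie to the right of the dashed line at 1.

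The Dlk1-Dio3 locus on chromosome 12 makes protein-coding genes from the paternal copy and a chain of noncoding RNAs from the maternal copy. The noncoding RNAs, Meg3, Rian (host of many small nucleolar RNAs) and Mirg (host of many miRNAs), are thought to come from 1 long transcription unit that starts at Meg3. In some mouse iPSC lines this unit is known to be silenced. Here the maternal RNAs were present in every line and the paternal genes were low.

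Meg3 (chr12:109541001-109571726, + strand, GRCm38) was at 64.6, 153 and 118 TPM in lines 66, 67 and 72. Rian (chr12:109603940-109661716, + strand) was at 26.0, 65.3 and 38.9 TPM, and Mirg (chr12:109729764-109749460, + strand) at 4.09, 11.5 and 10.7 TPM. All 3 RNAs were lowest in line 66 and, in TPM, highest in line 67 (in CPM Mirg was highest in line 72), and each step down the unit was lower than the one before in every line. In CPM, line 67 exceeded line 66 by a ratio of 2.47 for Meg3 (95% counting interval 2.38 to 2.55), 2.46 for Rian (2.33 to 2.59) and 2.44 for Mirg (2.05 to 2.91), so these intervals overlapped. From line 67 to line 72 the RNAs parted. The CPM ratio of line 72 to line 67 was 0.718 for Meg3 (0.697 to 0.740), 0.597 for Rian (0.570 to 0.625) and 1.09 for Mirg (0.952 to 1.24), and these intervals did not overlap. Such intervals are exact binomial and cover counting error only.

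The level of Rian was 0.386 ± 0.0504 of that of Meg3 over the lines, and the level of Mirg was 0.0764 ± 0.0136 of it. The transcript Meg3-205, which begins at the first base of the gene, was lowest in line 66 with 11.1 TPM and highest in line 67 with 29.3 TPM. Shares of other Meg3 transcripts differed between lines, with Meg3-208 at 8.05%, 12.0% and 4.23% of the counts and Meg3-211 at 3.09%, 1.56% and 6.72%. How reads are split among such overlapping transcripts is an estimate.

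Dlk1, a transmembrane inhibitor of differentiation that is transient in regenerating muscle, was at 3.14, 3.82 and 3.69 TPM, a range of 0.22 that is close to the median of all genes. Meg3 was therefore 20.5, 40.1 and 32.0 times as abundant as Dlk1 in the 3 lines. Rtl1, a retrotransposon-derived protein that acts in placenta and fetal muscle, had 10, 7 and 9 counts. Dio3, which inactivates thyroid hormone, had 1, 0 and 0 counts. Thus the 3 paternally expressed genes summed to between 3.19 and 3.84 TPM, and the 3 maternally expressed RNAs to 94.7, 230 and 167 TPM.

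**Figure D4:**
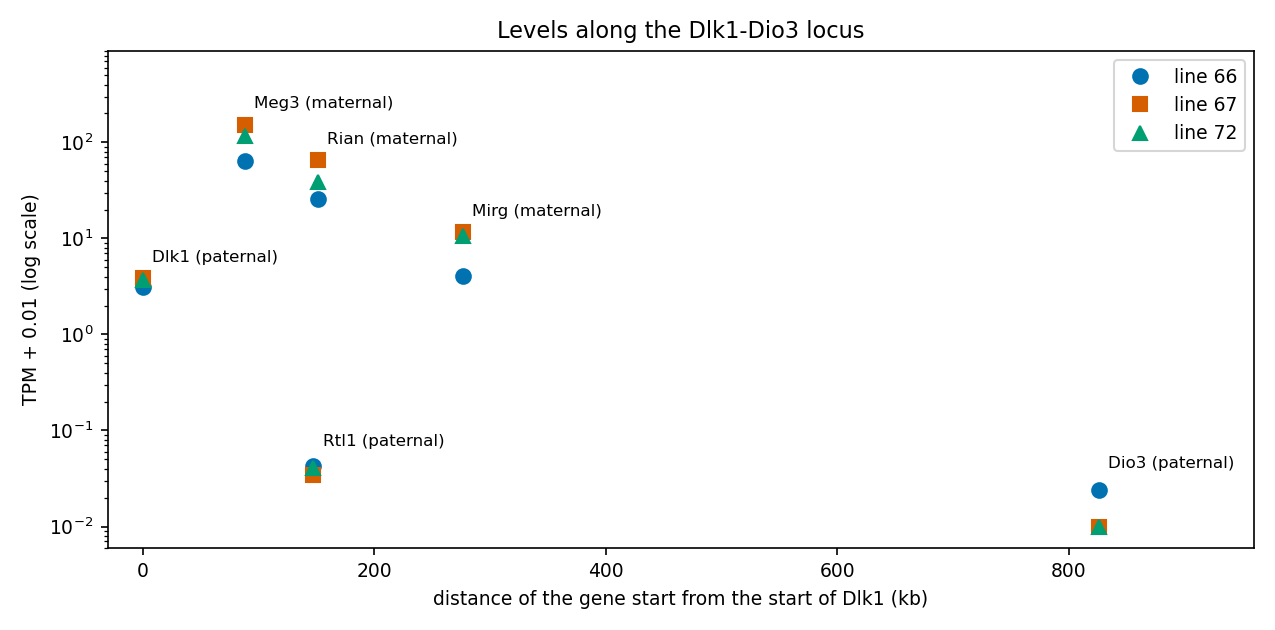
TPM (0.01 added, log axis) of the 6 genes of the Dlk1-Dio3 locus in each line, against the distance of the gene start from the start of Dlk1 in kb, with the parental copy known to be expressed. The maternal RNAs Meg3, Rian and Mirg step down along the locus with line 66 lowest in each, and the paternal genes Dlk1, Rtl1 and Dio3 lie at 3.82 TPM or less.

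For 5 starts at genes whose lines were over 2-fold apart, the 250 bases before the start are shown so that CpG-rich and CpG-poor starts can be compared. They are RefSeq promoters on GRCm38.p6, printed 5′ to 3′ on the strand of the gene. Capitals mark TGCCGC, the motif bound by ZFP57 (a zinc finger protein that holds methylation at imprints), or its reverse complement GCGGCA. The Meg3 window is chr12:109540746-109540995 (+ strand), the upstream Mest window chr6:30733256-30733505 (+), the downstream Mest window chr6:30737800-30738049 (+), the Nnat window chr2:157559828-157560077 (+) and the Grb10 window chr11:12037421-12037670 (− strand).
Meg3: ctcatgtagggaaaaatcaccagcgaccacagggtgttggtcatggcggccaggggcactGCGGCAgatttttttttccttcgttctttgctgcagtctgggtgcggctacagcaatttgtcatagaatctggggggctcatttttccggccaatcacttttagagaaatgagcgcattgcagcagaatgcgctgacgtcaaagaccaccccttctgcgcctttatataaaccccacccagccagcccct
Mest upstream: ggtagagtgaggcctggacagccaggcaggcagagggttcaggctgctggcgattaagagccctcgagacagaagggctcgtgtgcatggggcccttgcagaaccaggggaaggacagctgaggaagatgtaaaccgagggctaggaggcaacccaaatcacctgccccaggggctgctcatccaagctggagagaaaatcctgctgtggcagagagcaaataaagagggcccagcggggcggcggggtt
Mest downstream: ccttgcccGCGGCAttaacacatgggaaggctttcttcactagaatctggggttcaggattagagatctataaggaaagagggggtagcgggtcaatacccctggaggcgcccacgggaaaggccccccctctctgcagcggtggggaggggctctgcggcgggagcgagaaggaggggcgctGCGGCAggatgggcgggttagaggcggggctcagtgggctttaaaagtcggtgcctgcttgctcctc
Nnat: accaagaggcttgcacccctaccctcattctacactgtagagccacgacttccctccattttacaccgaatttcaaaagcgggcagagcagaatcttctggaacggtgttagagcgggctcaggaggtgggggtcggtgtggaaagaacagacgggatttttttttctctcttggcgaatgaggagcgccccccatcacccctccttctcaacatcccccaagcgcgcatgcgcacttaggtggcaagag
Grb10: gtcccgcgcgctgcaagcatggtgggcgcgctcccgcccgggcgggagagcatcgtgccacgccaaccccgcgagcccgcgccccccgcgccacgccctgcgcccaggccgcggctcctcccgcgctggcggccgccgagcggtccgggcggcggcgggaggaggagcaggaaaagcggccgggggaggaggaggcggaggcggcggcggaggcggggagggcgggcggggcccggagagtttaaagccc
The downstream Mest window held 14 CpG dinucleotides and 2 matches of the motif, and the upstream window 7 CpG and no match. Meg3 had 10 CpG and 1 match, Nnat 12 CpG and no match, and Grb10 40 CpG, a GC content of 81.2% and no match. RefSeq windows were found for 30 of the 35 genes (44 windows), and Cdkn1c, Impact, Nespas, Peg10 and Rtl1 had none in the table. Of the 44 windows 7 held the motif on either strand (15.9%), against 8.68% of 32851 windows of all genes, and the median CpG number was 10 against 6. Among the 7, 2 are Mest windows that start 3 bases apart and hold the same 2 matches. A match is only a run of letters, and neither binding nor methylation was measured here.

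Mest, an alpha/beta hydrolase of mesoderm that is high in growing tissue (chr6:30723547-30748465, + strand), was at 463, 471 and 1227 TPM in lines 66, 67 and 72. Lines 66 and 67 were within 1.01-fold of each other in CPM (interval 0.999 to 1.02), and line 72 was 2.61-fold above line 66 (2.58 to 2.64). Mest-210, which begins just after the upstream window shown above, held between 65.8% and 68.4% of the counts of the gene, and Mest-211, which begins just after the downstream window, between 28.1% and 30.9%. Transcripts from both starts were higher in line 72: those of the upstream starts were at 310, 314 and 852 TPM and those of the downstream starts at 147, 150 and 364 TPM. Their ranges on the log2(TPM + 1) scale were 1.46 and 1.30, so the estimated level rose at both. Mest-210 and Mest-211 overlap and end at the same base, so how reads are split between the starts is an estimate.

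Copg2, a subunit of the COPI coat of Golgi vesicles, lies tail to tail with Mest and overlaps it by 912 bases on the opposite strand. It was at 29.8, 29.4 and 35.9 TPM. Its transcripts went different ways. Copg2-201, which spans the whole overlap, had 1763, 1588 and 2819 estimated counts in lines 66, 67 and 72. Copg2-208, which spans only a small part of it, had 1716, 1377 and 1197. The minor transcript Copg2-202, which lies outside the overlap, had 71.9, 78.1 and 109. Whether Mest reads have a part in the counts of Copg2-201 was not tested. Whether the counting used strand is not given in the sources used here. If it did not, 78.0% of the 31-base words of Mest and 82.4% of those of Copg2 would be found in no other gene, against 100% and 99.9% on the same strand. Other genes of chromosome 6 were also shifted, with a median log2 ratio of −0.11 in line 66 and 0.15 in line 72 against the other lines. With the chromosome medians subtracted the range of Mest was 1.25, and its lines were still over 2-fold apart.

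**Figure D5:**
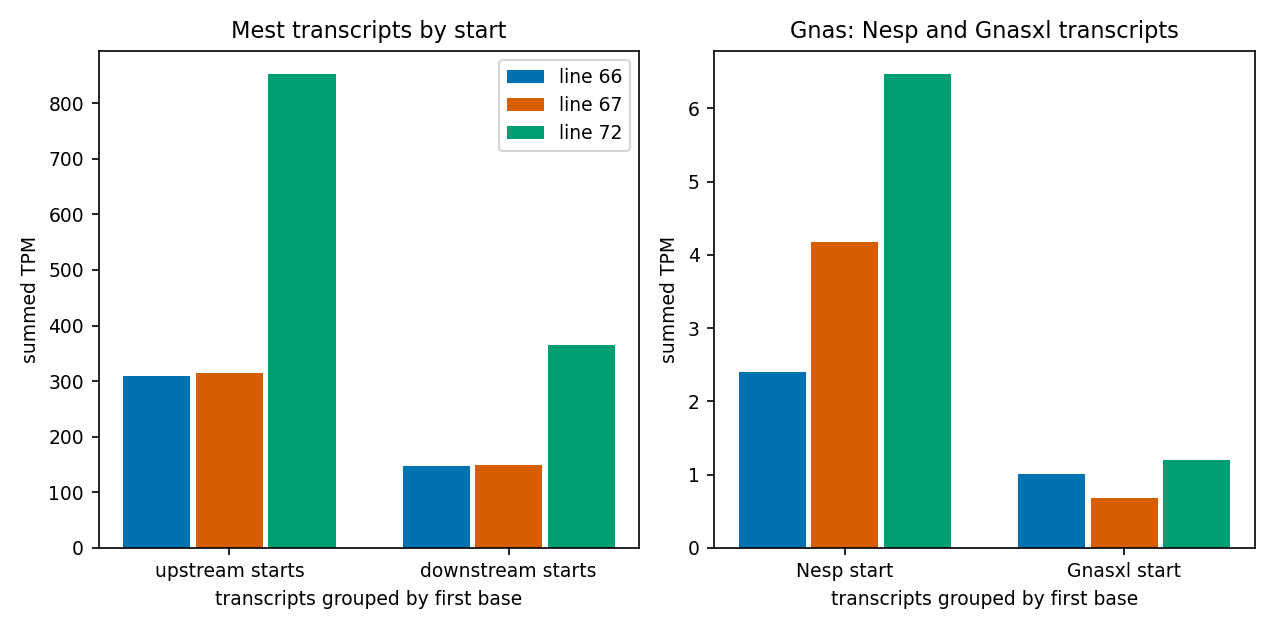
Summed TPM of the Mest transcripts by start (left) and of the Gnas transcripts that begin at the Nesp and Gnasxl first exons (right), one bar per line, y axes from 0. Mest bars of line 72 are the tallest at both starts (852 and 364 TPM), and the Nesp bars rise from 2.40 to 6.46 TPM.

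Nnat showed the largest range of the 28 genes. Nnat (chr2:157560078-157562522, + strand) encodes neuronatin, a small membrane proteolipid that acts on calcium handling in the endoplasmic reticulum and is paternally expressed. It had 1, 359 and 3920 estimated counts, or 0.0166, 6.12 and 64.5 TPM, in lines 66, 67 and 72. Its range of 6.01 exceeded that of 99.992% of all genes at 1 TPM or more. The CPM ratio of line 67 to line 66 was 393 with a counting interval of 70.0 to 15557, which is wide because line 66 had a single count, and that of line 72 to line 67 was 10.4 (9.34 to 11.6). Most counts in lines 67 and 72 went to the protein-coding transcript Nnat-202 (68.5% and 74.4%). Line 66 was thus near the limit of detection for a gene that was well expressed in line 72.

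Nnat lies within an intron of Blcap, on the opposite strand. Blcap, a small membrane protein lost in some tumours that is imprinted in brain, was at 42.4, 38.7 and 44.2 TPM, and its range of 0.19 was smaller than the median of all genes. The Nnat to Blcap ratio was therefore 0.000392, 0.158 and 1.46. No 31-base word of Nnat occurred in another gene, so the reads of the pair can be told apart.

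Grb10, an adaptor that restrains insulin and IGF receptor signalling, is maternally expressed outside the brain. The gene (chr11:11930508-12038683, − strand) had 416, 1822 and 4208 counts, or 1.75, 8.42 and 18.9 TPM. Levels rose in the same order of lines as those of Nnat, with CPM ratios of 4.79 for line 67 over line 66 (4.31 to 5.34) and 10.5 for line 72 over line 66 (9.53 to 11.7). Between 97.1% and 99.7% of the counts went to 1 transcript, Grb10-201, which begins just after the CpG-rich window shown above. Ddc, the neighbouring gene for dopa decarboxylase that is paternally expressed in heart, was at 4.49, 4.84 and 7.80 TPM. Chromosome 11 as a whole was shifted the other way: against the other lines, the median of its genes was 0.32 (log2 ratio) in line 66, where Grb10 was lowest. With chromosome medians subtracted the range of Grb10 was 3.16.

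Cdkn1c, the cyclin-dependent kinase inhibitor p57 that marks the exit of myoblasts from the cycle, is the main coding gene of the Kcnq1ot1 locus. The gene (chr7:143458339-143461050, − strand) had 316, 731 and 2024 counts, or 5.73, 17.0 and 48.0 TPM, with line 66 lowest and line 72 highest. In CPM, line 72 was 6.68-fold above line 66 (5.93 to 7.54). The TPM range was wider because a retained-intron transcript of only 500 bases, Cdkn1c-204, took 28.1%, 45.4% and 51.4% of the TPM but 7.07%, 13.2% and 15.4% of the counts. The full-length coding transcripts Cdkn1c-201 and Cdkn1c-202 rose as well, from 1.60 to 4.21 and 12.9 TPM and from 1.09 to 2.27 and 5.04 TPM. Myog, a regulator of muscle differentiation and one of the differentiated muscle markers, followed the same order at 168, 222 and 310 TPM. On the opposite strand Cdkn1c shares sequence with Gm44732, and 72.8% of its 31-base words would be found in no other gene if strand had not been used. Whether the amount of differentiated cells has a part in the differences of Cdkn1c, Grb10 and Nnat was not tested.

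Of the other genes of this locus, only Phlda2 and Slc22a18 were near the limit of detection. Kcnq1ot1, the paternal noncoding RNA that silences its neighbours in cis, had 545, 591 and 758 counts over a transcript of 93.1 kb, which came to 0.145, 0.173 and 0.215 TPM. In CPM it was 1.45-fold higher in line 72 than in line 66 (1.30 to 1.62). The libraries were made from polyadenylated RNA. Phlda2, a restrainer of placental growth, had 3, 0 and 3 counts, and Slc22a18, an organic cation transporter, 1, 5 and 0 counts.

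No gene of the Peg3 locus on chromosome 7 was over 2-fold apart. Peg3, a zinc finger protein of muscle and other stem cells, is paternally expressed. It was at 519, 370 and 441 TPM, highest in line 66 and lowest in line 67. Usp29, a ubiquitin protease that starts 146 bases away on the opposite strand, was at 18.8, 15.1 and 16.7 TPM in the same order of lines. The ratio of Peg3 to Usp29 was 27.6, 24.5 and 26.4, a coefficient of variation of 6.03%. Zim1, a maternally expressed zinc finger gene of the cluster, was at 64.5, 50.7 and 70.0 TPM and followed another order. Ranges of Peg3, Usp29 and Zim1 were 0.49, 0.30 and 0.46, all above the median of all genes. At least 90.3% of the TPM of Peg3 went to Peg3-201 in each line. Between 65.0% and 69.6% of the TPM of Usp29 went to Usp29-205, annotated as a processed transcript and not as protein-coding.

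In the Snrpn-Ube3a locus, the region of Prader-Willi and Angelman syndromes in humans, 1 gene stood apart. Ndn (chr7:62346569-62350262, + strand), which encodes necdin, a MAGE protein that favours myogenic differentiation, was at 23.2, 9.02 and 26.5 TPM. Line 67 was the low one here, with 0.388 of the CPM of line 66 (0.364 to 0.413), and Ndn was the only gene of the 8 with line 67 lowest. Its neighbour Magel2, another MAGE gene, had 19, 18.5 and 68 estimated counts, all under 1 TPM, with line 72 above line 67 by a CPM ratio of 3.60 (2.12 to 6.43). Both MAGE genes were thus highest in line 72, but line 66 was close to line 72 for Ndn and to line 67 for Magel2.

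The other paternally expressed genes of the locus were within 2-fold. Mkrn3, a ring finger protein that holds back puberty, was at 1.52, 1.04 and 1.25 TPM, and Peg12, a relative of the FRAT regulators of Wnt signalling, at 13.3, 13.2 and 17.0 TPM. Snrpn, which encodes a splicing protein of brain and other tissues, was at 11.6, 11.2 and 12.5 TPM, with 76.2% of its words found in no other gene on the same strand because it shares sequence with Snurf and Gm38393. Ube3a, the ubiquitin ligase that is maternal only in neurons, was at 60.8, 70.1 and 81.5 TPM.

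Gnas encodes the stimulatory G protein subunit Gs-alpha and several transcripts with their own imprints. In TPM, though not in CPM, Gnas was the most abundant of the 28 genes, and its TPM was the most even. It was at 1731, 1694 and 1669 TPM, a range of 0.05 that was larger than that of only 3.71% of all genes. Of these, 659, 687 and 670 TPM came from the Gs-alpha starts, which are expressed from both copies in most tissues, and 1063, 994 and 986 TPM from starts near exon 1A. The latter were almost entirely 1 processed transcript of 607 bases, Gnas-218. It took between 58.0% and 60.9% of the TPM of the gene but between 25.8% and 28.1% of its counts. As the exons of Gnas-218 are shared, that split is an estimate.

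Within this even total, the maternally expressed Nesp transcripts (a secretory protein of neuroendocrine cells) were at 2.40, 4.18 and 6.46 TPM. They made up 0.396%, 0.692% and 1.10% of the counts of Gnas and were lowest in line 66 and highest in line 72. The paternally expressed Gnasxl transcripts (a large form of the G protein subunit) were at 1.01, 0.678 and 1.20 TPM, and Nespas, the paternal RNA antisense to Nesp, at 0.631, 0.394 and 0.899 TPM. Gnasxl and Nespas were lowest in line 67, and Nesp was not. Nespas had only 56, 33 and 69 counts. Its CPM ratio was 0.645 for line 67 over line 66 (0.406 to 1.01). For line 72 over line 66 it was 1.28 (0.890 to 1.86). These intervals include equal levels, so the counts do not place line 66. For line 72 over line 67 the ratio was 1.99 (1.30 to 3.12). Gnasxl had 204, 128 and 228 estimated counts, split off from overlapping transcripts. Nespas overlaps Gnas by 11117 bases on the opposite strand, and 70.4% of its words would be unique if strand had not been used.

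Plagl1, Peg10 and Asb4 were abundant and only Plagl1 came near the 2-fold threshold. Plagl1, a zinc finger regulator of other imprinted genes and of cell cycle arrest, was at 325, 366 and 196 TPM, with line 72 lowest. The median gene of chromosome 10 was also shifted, by 0.28 (log2 ratio) in line 66, by −0.09 in line 67, where Plagl1 was highest, and by −0.18 in line 72. With chromosome medians subtracted Plagl1 was still under the 2-fold threshold. Peg10, a retrotransposon-derived gene needed in the placenta, was at 160, 174 and 172 TPM (range 0.12), and Asb4, a ubiquitin ligase adaptor, at 47.4, 55.9 and 44.1 TPM.

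Of the 5 genes of the remaining loci, Zdbf2 varied most. Zdbf2, a paternally expressed zinc finger gene that acts on growth through the hypothalamus, had 156, 688 and 580 estimated counts, or 0.373, 1.67 and 1.34 TPM. In CPM, line 67 was 4.83-fold (4.05 to 5.78) and line 72 3.88-fold (3.24 to 4.66) above line 66. On the log2(TPM + 1) scale the range was 0.96, since the added 1 TPM weighs on so low a gene. Airn, the paternal noncoding RNA that silences Igf2r, was at 5.67, 9.14 and 10.2 TPM, again with line 66 lowest.

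Impact, a regulator of translation under stress, was at 69.2, 80.1 and 103 TPM. Zrsr1, a splicing factor gene that sits as a retrotransposed copy inside an intron of Commd1, was at 10.4, 9.47 and 13.7 TPM, with between 70.4% and 74.6% of its TPM from a transcript annotated as a processed pseudogene. Commd1, a protein of copper handling and endosomal sorting, was at 122, 97.9 and 101 TPM. The pair overlaps by 4492 bases on opposite strands. None of these 3 genes was over 2-fold apart.

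Summed over parental class, 1 gene carried much of each total. The 21 paternally expressed genes summed to 1629, 1546 and 2316 TPM (1831 ± 423), of which Mest made up 39.3%. The 14 maternally expressed genes summed to 2200, 2292 and 2280 TPM (2257 ± 50.2), of which Gnas made up 75.2%. Most of the Gnas level came from exon 1A starts, known as paternally expressed, and from Gs-alpha starts, known as expressed from both copies in most tissues, so this sum is not a level of maternal copies. Leaving out the genes imprinted in few tissues, which takes out Gnas, the maternal sum was 214, 362 and 348 TPM, with line 66 lowest. The coefficient of variation over the lines was 23.1% for the paternal and 2.22% for the maternal total, but 23.1% and 26.5% for the broadly imprinted genes alone, so their order turned round. In CPM, which is not divided by length, the means were 5023 for the paternal and 1604 for the maternal genes, so the order of the parental totals depends on the unit. A higher total of 1 class does not say that 1 parental genome was more active, since only a few genes carry each sum.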

How the data were processed

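RNA-seq libraries (TruSeq Stranded mRNA) of 3 edited myoblast lines were used, taken as 1 group of 3. Per the labels, the reads were processed with bcl2fastq 2.20, fastp 0.20 and kallisto 0.46.1, and the submitters' processing notes name GRCm39. The strand setting and annotation are not given in the sources used here. The authors deposited an estimated count per transcript, with no normalization, and TPM values, which are scaled to 1000000 a library by the authors. The tables hold no coordinates. Of 121798 transcript identifiers, 1112 (between 0.493% and 0.535% of the counts) had no match in GENCODE M21 (GRCm38), and 509 matched with another length. Because of these differences the coordinates are those of M21 on GRCm38, not of the authors' build.

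Estimated counts and TPM were summed per gene. Differences between lines were computed on log2(TPM + 1) for genes whose mean reached 1 TPM. No test was made, since there is 1 group with no replicate within a line. Exact Clopper-Pearson intervals (95%) of CPM ratios cover counting error only. The spread between lines was estimated with edgeR 4.0.16 (TMM, intercept only, R 4.3.3) on counts rounded to whole numbers, where the common coefficient of variation was 0.198. The scripts were tested on simulated data. Words of 31 bases were compared between transcripts to find shared sequence. Chromosome shifts are medians over genes whose mean reached 10 TPM, without the imprinted genes, relative to the median of all genes.

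All 35 members were named. Of 2 other lists (other imprinted genes and genes of imprint maintenance), genes whose mean reached 10 TPM or over 2-fold apart were named. Of the transcripts with at least 5% of the TPM of a gene, only some were named. The members and all lists, the cell type markers included, were chosen with earlier results of these data known. Alternatives were another pseudocount (0.1 TPM), filter, fold threshold (1.5), CPM, TMM and DESeq2 1.42.0 scaling, subtraction of chromosome medians, and leaving out each line. Python 3.11.15 was used for the other steps.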

Additional observations from a re-analysis of the deposited data

How the results depend on the processing

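No paired analysis was possible because lines 66, 67 and 72 make up 1 condition. The number of imprinted genes over 2-fold apart was 9 with log2(TPM + 0.1), with TMM and with DESeq2 scaling (Zdbf2 was added), 8 over 3 counts in a line, 8 with chromosome medians subtracted, 6 at a mean of at least 10 TPM and 12 at 1.5-fold. It ranged from 5 to 7 with 1 line left out. The share of all genes moved to 6.67% with log2(TPM + 0.1), 2.17% at a mean of at least 10 TPM, 2.63% over 3 counts in a line and 14.2% at 1.5-fold, and ranged from 1.76% to 2.23% with 1 line left out. With 1 line left out, the median range was 0.27 to 0.33 for the imprinted genes and 0.13 to 0.19 for all genes, as a range over fewer lines is smaller by construction. The mean over lines of the median level of the 35 genes was 3.87 (log2), or 4.39 with CPM. The mean paternal sum was 5023 in CPM and 1110 TPM without Mest. The mean maternal sum was 1604 in CPM, 308 TPM for broadly imprinted genes and 559 TPM without Gnas. Of the levels of single genes, 21 of 35 moved by more than 1 SD with CPM and 11 of 35 with a pseudocount of 0.1. Leaving out 1 of 3 lines cannot move a mean by that much, so it bears no information on those levels. With 1 library a line, depth limits Dio3, Phlda2, Slc22a18 and Rtl1, and Nnat in line 66, where a difference was not detectable or has a wide interval.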

Other observations

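Imprinted genes outside the 35 were examined in the same way. Of 43 such genes 42 were listed, 23 had a mean of at least 1 TPM, 16 a mean of at least 10 TPM, and 8 were at or under 3 counts in every line. Of the 23, 1 was over 2-fold apart, where 4.05% of all genes were. This was Ano1, a chloride channel, at 4.47, 5.81 and 10.2 TPM in lines 66, 67 and 72, and the median range was 0.27 against 0.26 for all genes. Igf2, the paternally expressed fetal growth factor, was at 899, 1199 and 1760 TPM, and Igf2r, the maternally expressed receptor that clears it, at 42.5, 60.5 and 70.8 TPM. H19, the maternal noncoding RNA beside Igf2, is named after its values were seen. It had 109, 16 and 122 counts, or 1.27, 0.242 and 1.13 TPM, so Igf2 was high and H19 low in all 3 lines. Slc38a4, an amino acid transporter that was also singled out after its values were seen, lay just under the level filter with 24, 282 and 70 counts.

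The other genes of this list at 10 TPM or more were within 2-fold over the lines. Cd81, a tetraspanin, was the highest of them at 370, 414 and 415 TPM, followed by Nap1l4 at 163, 173 and 153 TPM, H13 at 108, 97.3 and 121 TPM and Gatm at 82.0, 102 and 86.6 TPM. Qpct (10.7, 21.1 and 11.8 TPM), Cobl (17.5, 26.0 and 29.7 TPM) and Inpp5f (20.2, 31.6 and 18.7 TPM) differed more between lines than Osbpl5, Tssc4, Sgce, Pon2, Pon3, Mcts2 and Trappc9, whose means lay between 11.5 and 49.1 TPM.

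Of 8 genes that hold imprints, 7 had a mean of at least 10 TPM. None of the 7 was over 2-fold apart, where 4.05% of all genes were, and Uhrf1, Dnmt1 and Zfp57 had ranges of 0.47, 0.45 and 0.36, above the median of all genes. Zfp57, which binds methylated TGCCGC, was at 48.9, 37.8 and 42.2 TPM, Zfp445 at 46.7, 42.1 and 48.3 TPM, and their partner Trim28 at 492, 521 and 527 TPM. The methyltransferase Dnmt1 was at 100.2, 138 and 127 TPM and its guide Uhrf1 at 96.9, 128 and 134 TPM, with line 66 lowest in both. Setdb1 had a mean of 30.4 TPM and Ctcf of 56.9 TPM. Dppa3 had 0 counts in every line.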
